A study of Mus musculus with 9 samples.

Results

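The comparison described here set acetylated histone H3 (AcH3) beside acetylated histone H2B (AcH2B) in cells whose mitochondrial malic enzyme ME2 had been knocked down. The cells were 3T3-L1, an established mouse preadipocyte line that forms fat cells when induced. Cells received an siRNA against Me2 (siME2), against Me1 (siME1) or a negative control siRNA (siControl). Differentiation was induced 2 days afterwards, and chromatin was fixed with formaldehyde on day 7 and immunoprecipitated for sequencing (ChIP-seq). The members were the 2 siME2 libraries for AcH3 and AcH2B of the 9 libraries in the series, chosen by their antibody and siRNA labels. Their deposited peak lists held 28415 AcH3 and 32465 AcH2B regions, together 60880 of the 192369 regions in the 6 AcH3 and AcH2B lists of the series. The siControl and siME1 pairs served for contrast, and the siME2 library for the deacetylase HDAC3 was laid over both marks. Each antibody and siRNA had 1 library, so the spread between cultures is unknown, conditions could not be tested against each other, and each difference lies between single libraries.

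The antibody labels carry a doubt that bears on every sentence on the marks. From general knowledge that was not checked here, the catalogue number given beside acetylated H2B is sold as an antibody to acetylated H3, and the number given beside acetylated H3 as one to acetylated H2B. The written antibody names and the library titles were followed. Had the catalogue numbers been the true record, AcH3 and AcH2B would change places throughout.

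Acetyl groups on the tails of core histones loosen the hold of a nucleosome on its DNA and are read by bromodomain proteins. Acetylated H3 is best known from the nucleosomes that flank active gene starts and from enhancers. Acetylated H2B is found at active starts too and is a well-known feature of active enhancers. Acetyltransferases such as p300 and CBP write these marks from acetyl-CoA, and deacetylases such as HDAC3, the enzyme of the NCoR corepressor complex, remove them. Malic enzymes turn malate into pyruvate. The cytosolic enzyme ME1 yields the NADPH that lipid synthesis uses, while ME2 works in mitochondria. Me2 transcript was not measured in these files, so the extent of knockdown is unknown.

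A gene counted as marked when a listed region overlapped the window from 1 kb before to 1 kb after one of its starts. For 4392 genes with no annotated start either end of the gene counted, so their regions may lie at the far end. Among genes named by rank these were St3gal2, Zbtb40, Prr13, Adgra2, Plvap, Clcf1, Ifi27 and Ifi27l2a. Some members of the gene lists, such as Fosl1 and Gpd1, were also of this kind. The promoters below introduce the contrast to which the results return, since genes with only one of the marks differed in the short sequence motifs near their starts. They are examples that hold the marked motif and do not stand for their classes. The ETS core described below was in 29.7% of AcH2B-only promoters, and Hsbp1 was not among the 8 strongest genes of that class. Med13, which encodes a subunit of the kinase module of Mediator, and Mdfic, an inhibitor of MyoD family factors, were marked by AcH3 and not by AcH2B. In the lines for these genes, capitals mark GGGCGG or its complement CCGCCC, the GC box bound by SP and KLF zinc finger factors. Gins3, a subunit of the GINS complex of the replicative helicase, and Hsbp1, which binds heat shock factor, were marked by AcH2B and not by AcH3. In their lines, capitals mark CCGGAAG or its complement CTTCCGG, a core bound by ETS factors. Each line is a RefSeq promoter of the GRCm38.p6 assembly, from 250 bases before to 50 bases after the start, written 5′ to 3′ on the strand of the gene.
Med13, chr11:86357547-86357846, minus strand: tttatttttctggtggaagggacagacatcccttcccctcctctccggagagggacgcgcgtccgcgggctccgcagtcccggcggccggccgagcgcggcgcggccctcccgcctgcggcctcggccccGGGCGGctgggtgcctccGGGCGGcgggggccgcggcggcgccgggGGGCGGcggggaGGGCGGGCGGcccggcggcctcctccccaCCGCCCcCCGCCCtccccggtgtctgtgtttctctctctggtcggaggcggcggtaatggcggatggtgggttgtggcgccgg
Mdfic, chr6:15720411-15720710, plus strand: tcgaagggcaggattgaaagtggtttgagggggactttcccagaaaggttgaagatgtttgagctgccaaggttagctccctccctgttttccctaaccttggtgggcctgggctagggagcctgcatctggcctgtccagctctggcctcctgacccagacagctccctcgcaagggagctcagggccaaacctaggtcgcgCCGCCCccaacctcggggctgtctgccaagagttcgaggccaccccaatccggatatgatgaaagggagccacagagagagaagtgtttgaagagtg
Gins3, chr8:95633309-95633608, plus strand: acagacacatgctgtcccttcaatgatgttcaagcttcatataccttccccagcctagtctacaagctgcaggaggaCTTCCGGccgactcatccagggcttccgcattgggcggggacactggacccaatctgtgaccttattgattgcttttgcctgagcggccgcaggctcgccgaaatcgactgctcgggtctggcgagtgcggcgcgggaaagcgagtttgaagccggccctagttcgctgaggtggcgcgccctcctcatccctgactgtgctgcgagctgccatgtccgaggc
Hsbp1, chr8:119344288-119344587, plus strand: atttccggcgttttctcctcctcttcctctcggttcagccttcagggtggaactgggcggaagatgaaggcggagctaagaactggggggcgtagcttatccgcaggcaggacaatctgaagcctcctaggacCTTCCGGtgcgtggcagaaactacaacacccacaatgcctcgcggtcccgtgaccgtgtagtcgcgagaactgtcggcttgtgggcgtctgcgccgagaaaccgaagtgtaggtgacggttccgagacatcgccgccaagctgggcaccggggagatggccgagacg
The Med13 promoter held 7 GC boxes, overlapping ones counted, and 78.3% of its bases were G or C. Mdfic held 1 GC box at 58.3% G or C. Gins3 and Hsbp1 held 1 ETS core each, at 60.0% and 60.7% G or C. They also held 1 GC box each, left in lower case, as many as Mdfic, so the motifs part the classes by their frequency over many promoters and not gene by gene. The AcH2B region of Gins3 ran from base 95632116 to 95633402 of chromosome 8, and that of Hsbp1 from 119343404 to 119344315. Both ended before the start of their gene, which lies at base 95633559 for Gins3 and at 119344538 for Hsbp1.

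The fragment counts behind the listed summits were alike. The median summit stood on 16 fragments for AcH3 and 18 for AcH2B, and the weakest listed summit on 9 and 10. Genome background per kb of fragment length was 7.08 for AcH3 and 7.09 for AcH2B, in units of the pileup, a scaled coverage signal. Fragment length was not measured, and the width of the narrowest listed region stood in for it, 282 bp for AcH3 and 292 bp for AcH2B. In those units 1 fragment counted 0.963 for AcH3 and 0.871 for AcH2B, so these values are not fragment counts. The match may reflect 1 common background library for the pair, which was not tested. Median fold over background was 4.19 for AcH3 and 4.17 for AcH2B, where the fold is the authors' own value at the summit, pileup plus 1 divided by local background plus 1. The lowest listed −log10 q was 1.31 for AcH3 and 1.30 for AcH2B. A region missing from a list can therefore hold signal below such a limit, and "only" below means listed for one antibody and not for the other. In bulk chromatin, fewer cells carrying a mark and less of the mark per cell cannot be told apart.

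Most AcH3 regions of ME2 knockdown cells lay on AcH2B, and the overlap was less complete seen from AcH2B. Of the AcH3 regions, 17386 of 28415 (61.2%, 95% Wilson interval 60.6% to 61.7%) overlapped an AcH2B region by at least 1 bp. Of the AcH2B regions, 16301 of 32465 (50.2%, 49.7% to 50.7%) overlapped an AcH3 region. These intervals, like those that follow, cover counting error only. In bases, 9.24 Mb carried both marks, which was 57.0% of the 16.2 Mb under AcH3 and 43.6% of the 21.2 Mb under AcH2B. When the overlap had to cover 50% of both regions, the shares were 32.6% and 28.5%. AcH2B thus covered more of the genome and left 16164 regions with no AcH3, against 11029 AcH3 regions with no AcH2B.

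The overlap depended on how strong a region was. Among AcH3 regions with a −log10 q below 3, 46.1% overlapped AcH2B, and the share was 54.3% from 3 to 5, 74.3% from 5 to 10 and 93.3% from 10 to 20. At 20 or more, 152 of 154 AcH3 regions (98.7%) overlapped AcH2B. AcH2B followed the same course at a lower level. Its shares were 32.6%, 41.6%, 62.4% and 86.3% in those bins, and at 20 or more 393 of 407 AcH2B regions (96.6%) overlapped AcH3. The strongest regions of either list were therefore almost all listed for both antibodies, and the regions specific to a mark were mostly weak. In siControl the strong AcH3 regions behaved otherwise, with 19.1% of those from 10 to 20 and 28.4% of those at 20 or more on a siControl AcH2B region.

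**Figure D1:**
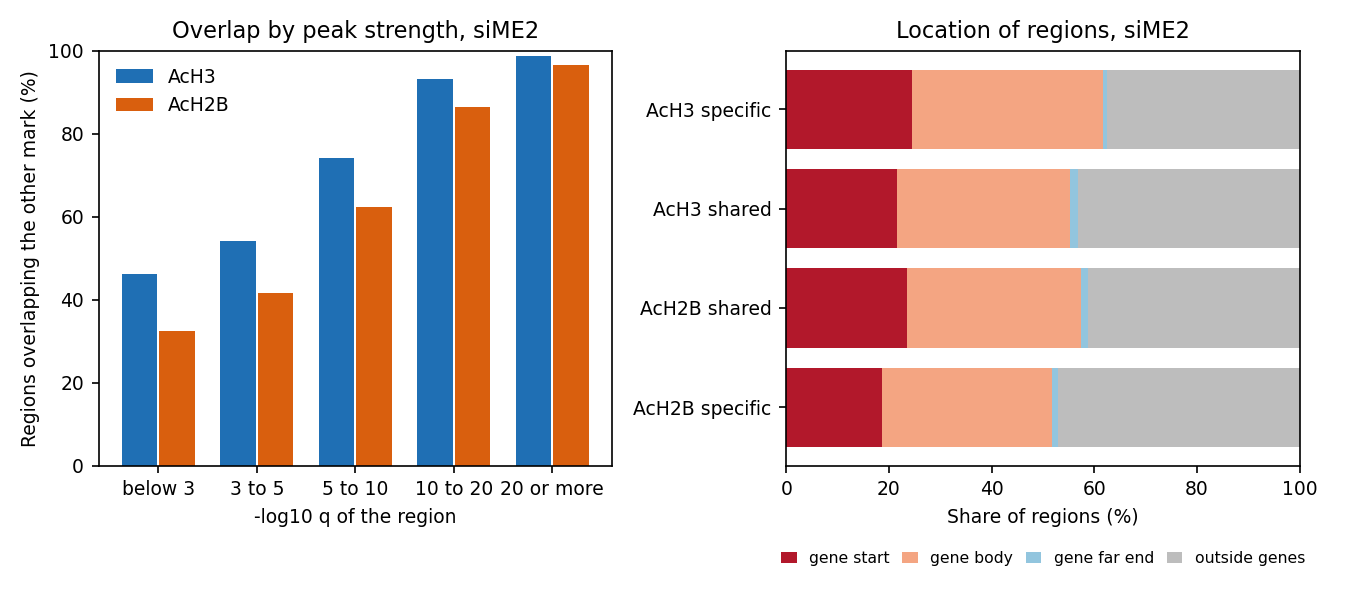
The left panel plots the percentage of siME2 regions that overlap the other mark (vertical axis) in bins of −log10 q (horizontal axis), with a bar for AcH3 and a bar for AcH2B in each bin. The right panel plots the percentage of specific and shared regions at each location. The overlap climbs from 46.1% and 32.6% in the weakest bin to 98.7% and 96.6% in the strongest, and all 4 sets of regions divide among locations in much the same way.

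Regions with and without the other mark lay in similar places. AcH3 regions with no AcH2B touched a gene start window in 24.5% of cases, a gene body in 37.1% and the space outside protein-coding genes in 37.5%. AcH2B regions with no AcH3 touched a start window in 18.6%, a gene body in 33.1% and the space outside genes in 47.1%. Shared regions stood between them, with 21.5% of the AcH3 and 23.5% of the AcH2B regions at starts. AcH3-specific regions were thus somewhat more often at starts than AcH2B-specific regions, and AcH2B-specific regions more often away from genes. Against shared AcH3 regions the order turned when the overlap had to cover 50% of both regions, with 21.5% of AcH3-specific and 25.1% of shared AcH3 regions at starts. The same contrast was far wider in the other cells. In siControl, 67.2% of AcH3-specific and 2.88% of AcH2B-specific regions lay at starts, and in siME1 54.1% and 5.14%. Over all regions, the share at starts was 22.7% for AcH3 and 21.1% for AcH2B in siME2, against 56.5% and 13.5% in siControl and 33.7% and 16.3% in siME1.

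AcH2B regions were the wider of the pair. The median AcH2B region spanned 483 bp (quartiles 354 and 738) and the median AcH3 region 440 bp (330 and 652). Regions over 2 kb numbered 880 for AcH2B, or 2.71%, and 370 for AcH3, or 1.30%. Specific regions were narrow and mostly had 1 summit. AcH3-specific regions had a median width of 363 bp and several summits in 4.51% of cases, and AcH2B-specific regions 403.5 bp and 8.46%. Shared regions had medians of 526 bp for AcH3 and 621 bp for AcH2B, with several summits in 22.6% and 30.3%.

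Where 1 AcH3 region met exactly 1 AcH2B region, which happened 11683 times, the summits usually stood close together. The AcH2B region was wider in 60.3% of these pairs and the AcH3 region in 39.5%, with medians of 585 and 502 bp. The summits lay a median of 129 bp apart (quartiles 56 and 254), and 55.6% lay within 150 bp, about the DNA of a single nucleosome. Across the 11683 pairs the fold of AcH3 and the fold of AcH2B had a Spearman rho of 0.34. This describes regions whose folds may rest on a common background library. At gene starts AcH3 had the higher fold in 56.6% of 2887 pairs, with median folds of 4.82 for AcH3 and 4.58 for AcH2B. In gene bodies it was higher in 47.2% of 3818 pairs. Outside genes it was higher in 43.2% of 4714 pairs, with median folds of 4.29 and 4.52. The balance between the marks therefore leaned to AcH3 at starts and to AcH2B away from genes, by small amounts.

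Regions specific to an antibody in siME2 were found again in the other cells less often than shared ones, for either antibody. Of the 11029 AcH3-specific regions, 48.6% overlapped an AcH3 region of siControl or siME1 and 51.3% an AcH2B region of either, against 79.96% and 91.6% of shared AcH3 regions. Of the 16164 AcH2B-specific regions, 70.0% overlapped an AcH2B region and 40.6% an AcH3 region of either, against 91.4% and 81.4% of shared AcH2B regions. None of the 4 other AcH3 and AcH2B lists held 32.3% of the AcH3-specific and 20.9% of the AcH2B-specific regions, against 4.02% of shared AcH3 and 3.88% of shared AcH2B regions. At gene starts, 92.1% of the 2705 AcH3-specific and 92.2% of the shared AcH3 regions lay on a siControl AcH3 region. So did 74.6% of the AcH2B-specific and 92.9% of the shared AcH2B regions there. On a siControl AcH2B region lay 10.5% of the AcH2B-specific and 43.4% of the shared AcH2B regions at starts.

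At gene starts the marks covered overlapping but unequal sets of genes. AcH3 was listed at 5302 of 21883 protein-coding genes (24.2%) and AcH2B at 5590 (25.5%). Both were listed at 3764 genes (17.2%), AcH3 only at 1538 (7.03%), AcH2B only at 1826 (8.34%) and neither at 14755. A start window overlapped that of another gene at 26.6% of AcH3-only, 25.2% of doubly marked and 21.0% of AcH2B-only genes. At unmarked genes the share was 10.4%. The same region can therefore mark neighbouring genes, and a mark at such a gene may belong to its neighbour. Of the AcH3 genes 71.0% also had AcH2B, and of the AcH2B genes 67.3% also had AcH3. Genes with both marks had the higher folds, with medians of 5.04 for AcH3 and 4.76 for AcH2B, against 4.29 at AcH3-only and 4.22 at AcH2B-only genes. Genes with AcH3 at a start and no AcH2B in the gene or within 10 kb of it numbered 871. By the matching rule AcH2B-only genes numbered 1242. Genes with both marks anywhere in the gene or within 10 kb of it, a wider rule, numbered 7208. In siControl, AcH3 only, both and AcH2B only were called at 8543, 2025 and 153 genes, and in siME1 at 3146, 6192 and 463. AcH2B was therefore listed at more gene starts than AcH3 in siME2, by 288 genes, while AcH3 led in siControl and siME1. That order rests on the longer AcH2B list: with the strongest 28415 AcH2B regions alone, AcH3 only was called at 1730 genes and AcH2B only at 1642.

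**Figure D2:**
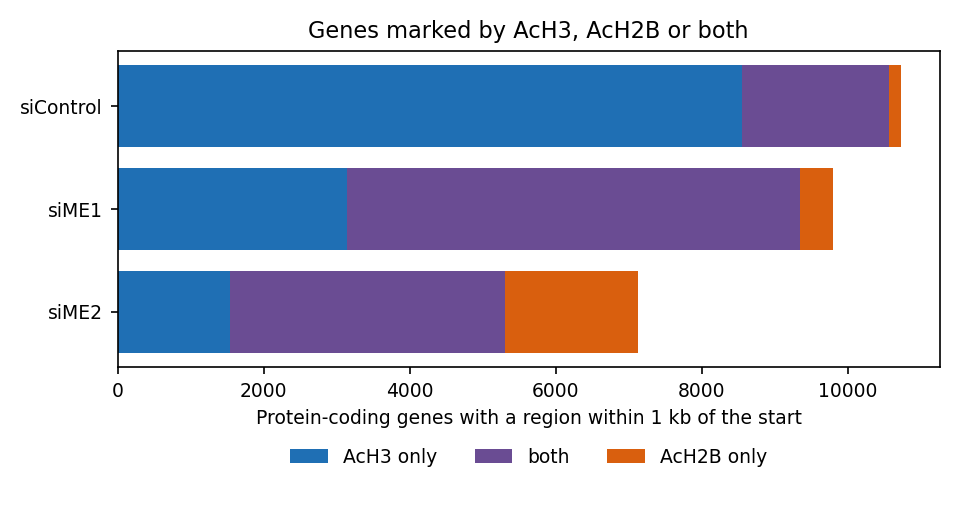
Bars count the protein-coding genes with a listed region within 1 kb of a start (horizontal axis) for AcH3 only, both marks and AcH2B only, with a bar for each siRNA (vertical axis). In siME2 the AcH2B-only class holds 1826 genes against 153 in siControl and 463 in siME1, and the AcH3-only class holds 1538 against 8543 and 3146.

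The AcH2B-only genes of ME2 knockdown cells were, for the most part, genes with AcH3 and no AcH2B in control cells. Of the 1826 genes, 1559 (85.4%) had AcH3 only in siControl, 155 had both, 28 had AcH2B only and 84 had neither. In siME1, 948 of them had both marks, 544 AcH3 only and 138 AcH2B only. Of the 1538 AcH3-only genes, 1266 (82.3%) had AcH3 only in siControl and 931 (60.5%) had both in siME1. Of the 3764 genes with both, 2091 had AcH3 only and 1578 had both in siControl. A siControl AcH3 region was thus present at 93.9% of AcH2B-only, 95.7% of AcH3-only and 97.5% of doubly marked genes. Its median fold was 8.69, 10.7 and 11.6 in these classes. At genes with neither mark in siME2 it was present at 25.2%, with a median fold of 7.96.

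Around gene starts the summits of the marks had different distributions. Over the 14730 genes with 1 annotated start, 4560 AcH3 summits and 4833 AcH2B summits lay within 1 kb. The AcH3 summits had their highest 100 bp bin from 200 to 300 bp downstream, with 593 summits, and 41.9% (40.5% to 43.3%) lay upstream of the start. The AcH2B summits had their highest bin from 400 to 300 bp upstream, with 614 summits, and 60.4% (59.0% to 61.7%) lay upstream. The median position was 169 bp downstream for AcH3 and −269 bp, upstream, for AcH2B. AcH3 therefore leaned into the transcribed side, and AcH2B onto the upstream side. In the other cells the AcH2B summits were spread more evenly, with 51.9% upstream in siControl and 47.9% in siME1, while AcH3 had 36.9% and 36.6% upstream.

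**Figure D3:**
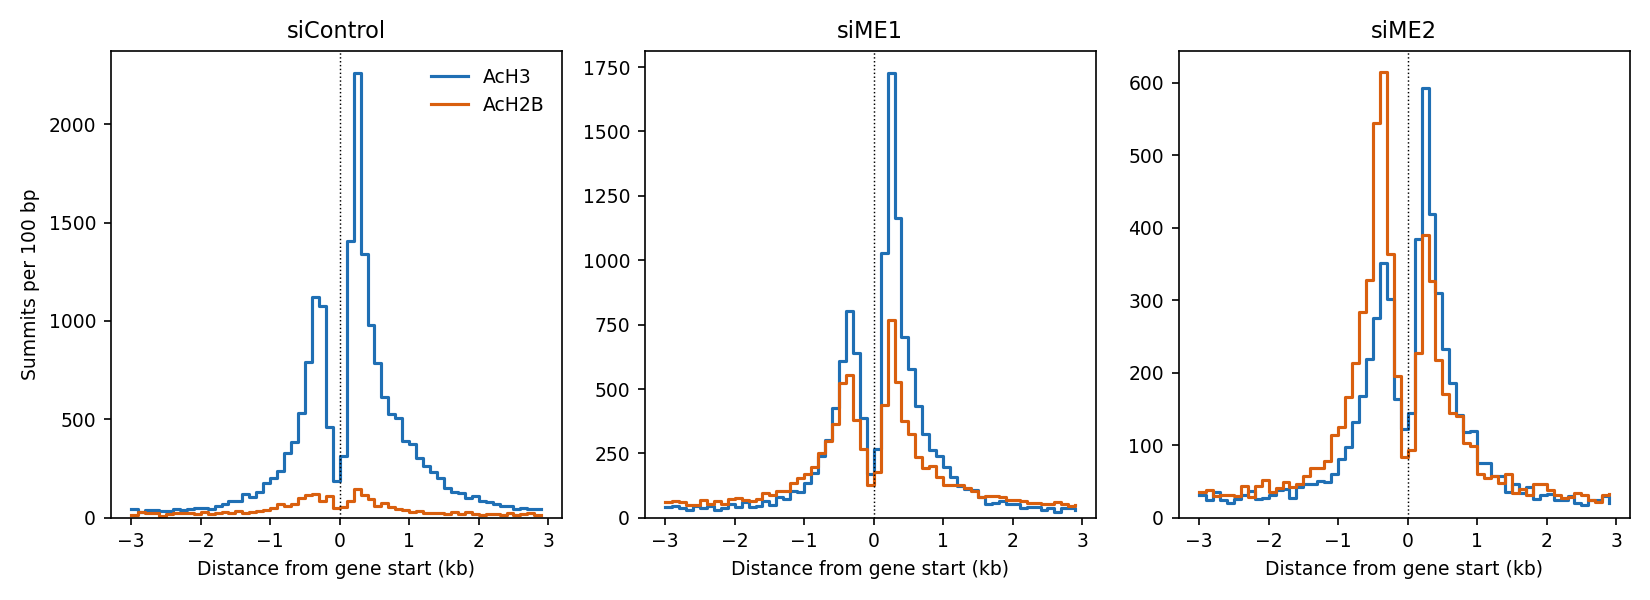
Lines count summits per 100 bp (vertical axis, scaled separately in each panel) by distance from the start of genes with 1 annotated start (horizontal axis, kb, transcribed side to the right) for AcH3 and AcH2B in siControl, siME1 and siME2. In siME2 the AcH2B line is highest upstream, at 614 summits, and the AcH3 line is highest downstream, at 593, while in both other panels the downstream peak is the higher one for each mark and AcH3 exceeds AcH2B there.

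The medians lay apart within the same genes too, though most of these genes had both summits on one side. At 2263 genes with both marks and 1 start, the strongest AcH3 region had its summit a median of 147 bp downstream and the strongest AcH2B region at −286 bp, upstream. AcH3 stood downstream with AcH2B upstream at 586 of these genes, and the reverse was seen at 148. At the remaining 1529 both summits lay on one side. At 40.1% of the genes the summits lay within 150 bp of each other. Whole regions were divided in the same way. The AcH2B region lay entirely upstream of the start at 64.5% (61.8% to 67.2%) of 1224 AcH2B-only genes and at 50.5% (48.4% to 52.5%) of doubly marked genes. The AcH3 region lay entirely upstream at 29.6% (26.9% to 32.5%) of 989 AcH3-only genes and at 31.8% (29.9% to 33.8%) of doubly marked genes.

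The promoters of the 3 marked classes were rich in CpG. Of the 21883 genes, 17491 had a promoter in the RefSeq table, with 21262 promoters of 300 bp in all, and each was searched on both strands for 12 motifs. Each promoter took the class of its gene. The 1823 AcH2B-only promoters came from 1485 genes and the 1586 AcH3-only promoters from 1241. A promoter can thus lie away from the region that gave its class. The intervals count promoters of the same gene as independent. Median G and C content was 63.7% for AcH3-only, 61.0% for doubly marked and 59.0% for AcH2B-only promoters, against 53.3% where neither mark was listed. The median ratio of observed to expected CpG was 0.79, 0.76 and 0.77 in the marked classes and 0.37 in the unmarked class. Marked starts were thus mostly CpG island promoters, and the AcH2B-only class had slightly less G and C than the AcH3-only class.

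The ETS core was most frequent in AcH2B-only promoters. CCGGAAG or CTTCCGG was found in 541 of 1823 AcH2B-only promoters (29.7%, 27.6% to 31.8%). The share was 13.9% (12.3% to 15.7%) in AcH3-only, 17.2% (16.1% to 18.4%) in doubly marked and 7.17% in unmarked promoters, and 11.6% in all promoters. The classes stood in the same order at matched base composition. In promoters of 55% to 65% G and C the share was 37.1% of 781 AcH2B-only promoters and 16.0% of 563 AcH3-only promoters. Below 55% it was 20.7% and 9.80%, and above 65% it was 28.3% and 14.1%. The ETS share of the AcH2B-only class was lower in the other cells, at 49 of 416 promoters (11.8%) in siME1 and 2 of 90 in siControl. There the AcH3-only class had the core more often, in 21.3% of siME1 and 20.8% of siControl promoters. A match is a run of letters in this window and not a measured binding site. Among AcH2B-only genes with 1 start, the region lay entirely upstream in 67.3% (62.5% to 71.7%) of those with the core and 63.3% (59.9% to 66.5%) of those without, which overlap within counting error.

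The GC box GGGCGG or CCGCCC ordered the classes the other way. It was found in 70.0% (67.7% to 72.2%) of AcH3-only, 62.1% of doubly marked and 58.7% (56.4% to 60.9%) of AcH2B-only promoters, against 37.0% of unmarked and 46.2% of all promoters. The other motifs followed no single order. TATAAA or TTTATA, the TATA box, was in 6.18%, 7.61% and 5.87% of the marked classes, in the same order, and in 15.7% of unmarked promoters. The palindromic E-box CACGTG was in 9.33%, 10.2% and 11.2%, against 6.50%. TGANTCA, the AP-1 site, was in 3.85%, 5.87% and 4.99%, against 7.95%. TTGCNNAA or TTNNGCAA, a loose C/EBP site, was in 7.00%, 8.00% and 8.56%, against 11.4%. The NRF1 site GCATGCGC or GCGCATGC was in 5.17%, 5.08% and 6.14%, against 2.50%. AGGTCA or TGACCT, the nuclear receptor hexamer, was in 9.58% (8.23% to 11.1%) of AcH3-only and 13.3% (11.8% to 14.9%) of AcH2B-only promoters, with 12.8% in the doubly marked class and 16.1% in the unmarked one. CCAAT or ATTGG, the NF-Y box, was in 38.6%, 34.1% and 40.4%, against 39.1%. TGACGTCA, the cyclic AMP response element, stood at 3.53%, 2.85% and 4.06%, against 1.66%. TGTGGTT or AACCACA, the RUNX site, and ACATTCC or GGAATGT, the TEAD site, stood at 3.90% and 2.58% in the AcH2B-only class and at 2.71% and 2.27% in the AcH3-only class.

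**Figure D4:**
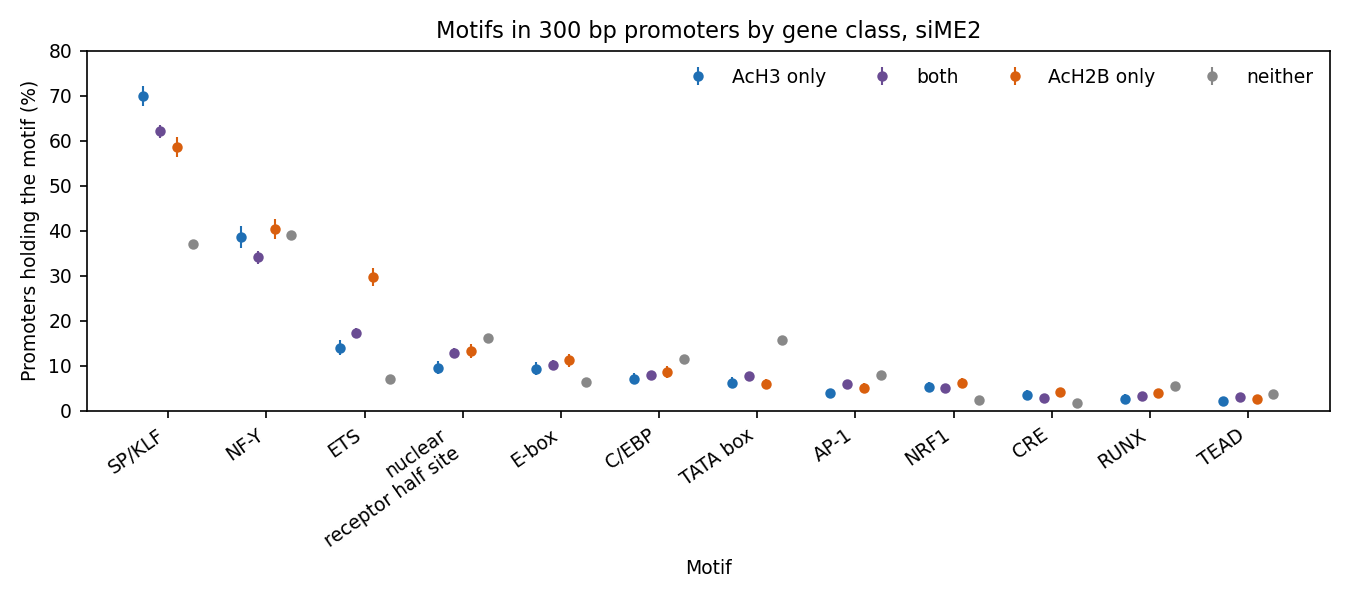
Points give the percentage of 300 bp promoters that hold each motif (vertical axis) for 12 motifs (horizontal axis) by the marks at the gene in siME2, with Wilson 95% intervals as bars. The ETS core stands at 29.7% in AcH2B-only promoters against 13.9% in AcH3-only promoters, and the GC box stands at 70.0% in AcH3-only promoters against 58.7%.

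The strongest AcH2B-only genes, ranked by −log10 p among genes outside high-background regions, were Lamp1, H4c3, Prmt9, Zbtb40, Bdh2, Gins3, Prr13 and Enkd1. Lamp1 encodes a major membrane protein of lysosomes. Its AcH2B fold was 11.5 in siME2, above 3.96 in siControl and 8.97 in siME1. Its AcH3 fold was 15.3 in siControl and 11.9 in siME1, with no AcH3 region in siME2. Prmt9, a protein arginine methyltransferase, had no AcH3 region in siME2, after folds of 12.0 (siControl) and 4.76 (siME1), while its AcH2B fold was 9.47 in siME2 and 3.14 in siME1. Both genes thus had a strong AcH3 region in control cells and a strong AcH2B region after ME2 knockdown. H4c3, a replication-dependent histone H4 gene, had an AcH2B fold of 11.6 in siME2 and 4.36 in siME1, with AcH3 listed in siControl alone, at 5.07. Zbtb40, a zinc finger gene, reached 11.1 for AcH2B in siME2, and Bdh2, a cytosolic hydroxybutyrate dehydrogenase, 10.0. Gins3 was listed for AcH3 in siControl, at 5.66, and for AcH2B in siME1, at 4.06, and in siME2, at 8.73. Prr13 had 8.68 and Enkd1 7.39 for AcH2B in siME2. All 8 had AcH3 in siControl, with folds from 3.65 at Bdh2 to 15.3 at Lamp1. Of the 8, Lamp1 and Zbtb40 had AcH2B in siControl.

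The strongest AcH3-only genes, by the same ranking, were Samd4, Med13, Hnrnpr, Mdfic, Nckap5l, St3gal2, Pcbp2 and Gnao1. Samd4, an RNA-binding repressor of translation, had an AcH3 fold of 11.9 in siME2, between 18.2 in siControl and 10.2 in siME1, and AcH2B was listed in siME1 alone, at 6.46. Med13 had AcH3 folds of 19.3, 8.86 and 9.60 in siControl, siME1 and siME2, and AcH2B folds of 3.99 in siControl and 3.97 in siME1. Hnrnpr and Pcbp2, both binders of nascent RNA, had AcH3 folds of 9.34 and 6.75 in siME2. Pcbp2 was AcH3-only in siControl and siME1 as well. At all 8 genes the AcH3 fold was lower in siME2 than in siControl, and the whole list moved that way. The median AcH3 fold of regions at starts was 4.548 in siME2 and 8.325 in siControl. AcH3 folds of single genes set beside siControl are to be read against that shift. AcH2B was listed at 7 of the 8 in siME1 and at 4 of the 8 in siControl, namely Med13, Mdfic, St3gal2 and Gnao1. Mdfic stood at 8.03, Gnao1, a G protein subunit, at 7.17, Nckap5l at 6.94 and St3gal2, a sialyltransferase, at 6.64 for AcH3 in siME2.

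The genes strongest in both marks had both in all 3 conditions. Adgra2, an adhesion receptor, had folds of 11.7 for AcH3 and 10.0 for AcH2B in siME2, over regions of 4115 and 5912 bp. Plvap, a protein of caveolar diaphragms, had 11.4 and 12.4, and S100a3, a calcium-binding protein, 11.3 and 13.2. Tnrc18 had 10.9 and 10.8, Galnt9, a glycosyltransferase, 11.9 and 11.1, and Zfp827 9.90 and 9.35. In siControl AcH3 had the higher fold at Adgra2, S100a3, Tnrc18 and Zfp827, and AcH2B at Plvap and Galnt9. The span of S100a3 in the gene table takes in neighbouring S100 genes, so its regions may belong to one of those. For Adgra2 and Plvap either end of the gene counted, so their regions may lie at the far end.

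Among genes with both marks and folds of at least 4, Clcf1 leaned furthest to AcH3 and Smn1 furthest to AcH2B. Clcf1, a cytokine of the interleukin 6 family, had 11.3 for AcH3 and 4.73 for AcH2B, a ratio of 2.38. Elk3, an ETS family repressor, had 9.77 and 4.17, a ratio of 2.34. Ppp2r3c and Prorp, a divergent pair, shared regions of 9.12 and 4.03. At the other end Smn1, needed for assembly of splicing particles, had 4.51 for AcH3 and 9.98 for AcH2B. Ptgfr, the prostaglandin F receptor, had 6.03 and 12.9, and the interferon-induced neighbours Ifi27 and Ifi27l2a shared regions of 6.10 and 13.0. At Ptgfr the AcH2B fold was also the higher one in siControl, at 9.96 against 7.31, and in siME1, at 15.0 against 4.80. At Smn1 AcH3 led in siControl, at 10.8 with no AcH2B region, and the folds were 4.89 and 4.82 in siME1.

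Gene lists drawn up by role were read against all 21883 genes, of which 7.03% had AcH3 only, 17.2% both and 8.34% AcH2B only. In every list other than the markers of other cell types, more than 17.2% of the members were doubly marked. In the adipocyte list, 15 of 34 genes had both marks, 3 AcH3 only, 3 AcH2B only and 13 neither. Pparg, the master regulator of fat cell formation, had folds of 3.67 for AcH3 and 3.81 for AcH2B in siME2. In siControl Pparg had AcH3 alone, at 7.14, and in siME1 3.48 and 5.32. Cebpa, its partner, went from AcH3 alone at 6.45 in siControl to 4.15 for AcH3 and 5.15 for AcH2B in siME2. Both regulators thus had AcH2B in the knockdown lists and none listed in siControl. That pattern was common and does not set these regulators apart. Control cells had AcH2B listed at 9.95% of all genes, ME1 knockdown cells at 30.4% and ME2 knockdown cells at 25.5%. Among all genes doubly marked after ME2 knockdown, 55.55% had AcH3 alone in control cells.

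The enzymes and lipid droplet proteins of the adipocyte list differed in their balance. Fasn, fatty acid synthase, had 6.00 for AcH3 and 5.10 for AcH2B in siME2, against 16.7 and 6.02 in siControl. Plin2, a lipid droplet coat protein, leaned to AcH3 with 6.75 and 3.64, and Scd1, the stearoyl-CoA desaturase, with 6.60 and 3.90. Dgat2, which makes triglyceride, leaned to AcH2B with 5.15 and 7.71, and so did Gpd1, glycerol 3-phosphate dehydrogenase, with 6.65 and 7.89. For Scd1, Dgat2 and Gpd1, as for Cebpd, Fabp4, Fabp5 and Dgat1 below, either end of the gene counted. Both Gpd1 regions lay at the end at base 99725014, away from the other end at base 99717587, and may thus lie at the far end of the gene. AcH3 alone was listed at Cebpd (3.97), Fabp4 (3.62) and Fabp5 (3.86), the first an early regulator and the others fatty acid carriers. AcH2B alone was listed at Cebpb (3.16), Dgat1 (3.73) and Agt (7.22). Cebpb had both marks in siControl, at 15.7 for AcH3 and 6.75 for AcH2B. Zfp423, which commits cells to the fat lineage, had 8.38 for AcH3 and 4.54 for AcH2B. Adipoq, Plin1, Cidec, Cfd, Retn and Lep, all genes of mature fat cells, had no region of either mark at their starts in siME2. They had none in siControl or siME1 either. Other genes of mature fat cells in the list were marked. Plin4 and Lipe had both marks in all 3 conditions, Plin4 at 6.22 and 5.52 in siME2. Acsl1 had both in siME2, at 4.66 and 3.87.

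The preadipocyte and fibroblast list had a mark at 22 of 24 genes, the highest share of any list, and 18 of the 24 were doubly marked. Its median folds were 6.28 for AcH3 and 6.26 for AcH2B, against 4.82 and 4.58 over all marked genes. Vim, vimentin, had 9.81 and 8.11, Lox, lysyl oxidase, 10.9 and 9.41, and S100a4 9.93 and 10.4. Dlk1, which holds preadipocytes back from differentiation, leaned to AcH3 with 8.37 and 4.87. Twist1 and Twist2, mesenchymal repressors, had AcH3 only, at 5.27 and 6.41, and Gas6 had AcH2B only, at 4.06. Of 20 collagen genes, some of them also in this list, 11 were doubly marked and 7 had neither mark. Among the doubly marked were Col6a1 at 9.64 and 9.98 and Col1a1 at 8.58 and 7.48. In the actin and SRF target list 12 of 20 genes had both marks, 4 had AcH3 only, Srf itself among them at 4.07, and none had AcH2B only. Tpm4, a tropomyosin, had 11.3 for AcH3 and 5.99 for AcH2B.

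Genes of NADPH and lipid supply were marked in part. Of 20 NADPH-producing genes, 10 had both marks, none had AcH3 only, Rpia had AcH2B only at 3.67, and 9 had neither. Me1 had 3.87 for AcH3 and 4.58 for AcH2B, against 15.4 for AcH3 alone in siControl and 8.27 and 3.88 in siME1. Me2 had neither mark, as did Pgd of the pentose phosphate route. G6pdx, the entry enzyme of that route, had 6.12 and 3.73, and Mthfd1, a folate enzyme, 4.19 and 7.71. Among 20 genes of fatty acid and triglyceride synthesis, 9 had both marks, 3 AcH3 only and 3 AcH2B only. Acly, which makes cytosolic acetyl-CoA from citrate, had 4.58 for AcH3 and 7.15 for AcH2B. The elongases were divided, with Elovl1 (6.52) and Elovl6 (4.83) listed for AcH3 only and Elovl5 (4.48) for AcH2B only. In cholesterol synthesis 6 of 20 genes had both marks and 5 had AcH3 only. Those 5 included Insig1, which retains SCAP in the endoplasmic reticulum, at 3.86. Scap, the escort of SREBP, had AcH2B only at 5.48, and Hmgcs1 had 6.87 and 6.53.

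Oxidative phosphorylation, ribosomal protein and proteasome genes had more AcH2B-only than AcH3-only members. In oxidative phosphorylation 6 of 26 genes had AcH2B only, 3 AcH3 only and 6 both. The AcH2B-only genes were Ndufa9, Ndufv1, Sdhb, Cox5a, Cox5b and Atp5o, with folds from 3.34 at Ndufv1 to 7.41 at Cox5b. Cox5b had AcH3 alone in siControl, at 7.33, and in siME1, at 3.63. Among cytosolic ribosomal protein genes 8 of 28 had AcH2B only, 3 AcH3 only and 13 both. Rpl23 had the highest AcH2B-only fold, at 7.73, and had both marks in siControl, at 17.4 for AcH3 and 5.09 for AcH2B. Rps23 and Rpl7, both doubly marked, leaned to AcH3 with 8.51 against 4.64 and 7.77 against 4.17. Of 27 proteasome genes 5 had AcH2B only, led by Psmd4 at 5.80 and Psmb5 at 5.69, with 3 AcH3 only and 8 both. Reference genes used in every cell were doubly marked in 20 of 25 cases, and none had AcH2B only. Of these Actb, cytoplasmic actin, stood level at 8.20 and 8.09.

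Among immediate early and inflammatory genes 6 of 20 had AcH3 only, 10 both and 1 AcH2B only. The AcH3-only genes were Fos (3.62), Fosl1 (5.64), Jund (3.86), Egr1 (5.15), Egr2 (3.30) and Egr3 (2.83), all transcription factors induced by growth signals. Il6 was the AcH2B-only gene, at 4.01. Fosl2 and Junb had both marks, at 9.02 and 6.85 and at 7.90 and 8.04. In the circadian list Clock, Arntl, Per2 and Per3 had AcH3 only, Nr1d2 and Nfil3 were among the genes with AcH2B only, and 7 of 20 had both. Nr1d1, the repressor of Arntl, had 5.31 for AcH3 and 8.74 for AcH2B. Insulin and mTOR signalling had 13 of 22 genes doubly marked, 3 with AcH3 only and none with AcH2B only. Irs1, the insulin receptor substrate, had AcH3 only at 4.18, and Irs2 had 6.22 and 5.26. The cell cycle list had 10 of 24 doubly marked, with Cdk1, Mcm5 and Mki67 listed for AcH3 only and Pcna for AcH2B only. In the NRF2 and redox list, 10 of 20 were doubly marked, Keap1 and Txnrd1 had AcH3 only, and Gclm and Txn1 had AcH2B only.

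Among writers and erasers of acetylation, 14 of 33 genes had both marks, 8 AcH2B only and 3 AcH3 only. The acetyltransferase genes Ep300 and Kat7 leaned to AcH3, with 8.38 against 5.27 and 8.13 against 3.86. Kat2a (4.09), Kat8 (5.26) and the coactivator gene Ncoa3 (4.58) had AcH2B only. Of the deacetylases, Hdac1 had AcH3 only at 5.48, beside AcH3 folds of 6.28 (siControl) and 8.27 (siME1), again with no AcH2B region. Hdac6 (5.15), Hdac8 (3.69), Sirt2 (3.73) and Sirt7 (3.38) had AcH2B only, and Sirt6 had 6.43 for AcH3 and 9.13 for AcH2B. The corepressor genes parted as well. Ncor1 had AcH3 only at 3.67, and Gps2, a subunit of the same complex, had AcH2B only at 6.52 after AcH3 alone at 6.78 in siControl and 6.53 in siME1. Hdac3 had neither mark in siME2, against an AcH3 fold of 11.1 in siControl and one of 7.82 in siME1. That pattern was common and does not set Hdac3 apart. Of the 10568 genes with AcH3 in siControl, 3713 had neither mark in siME2.

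**Figure D5:**
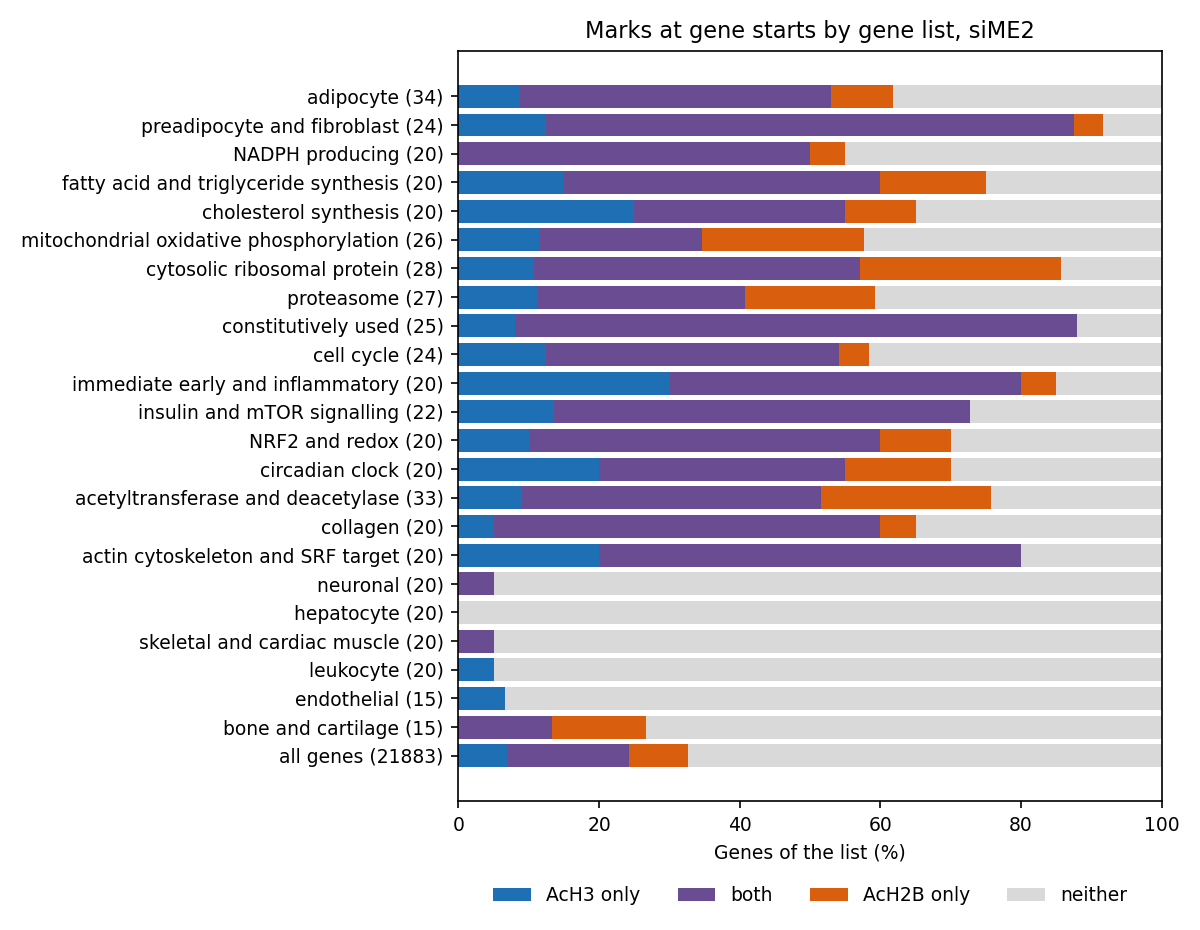
Each bar divides a gene list (vertical axis, number of genes in brackets) into the percentage of genes with AcH3 only, both marks, AcH2B only or neither at a start in siME2 (horizontal axis). The lowest bar shows all 21883 genes, of which 7.03%, 17.2% and 8.34% fall in the 3 marked classes, while 18 of 24 preadipocyte and fibroblast genes have both marks and none of 20 hepatocyte genes has either.

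Markers of other cell types were almost unmarked. None of 20 hepatocyte genes had either mark. Of 20 neuronal genes Dlg4 alone was marked, with 11.3 for AcH3 and 6.04 for AcH2B, and of 20 muscle genes Tnni2 alone, with 4.07 and 6.78. Lck of 20 leukocyte genes and Flt1 of 15 endothelial genes had AcH3 only, while Ptprc and Pecam1, which define those cell types, had neither. Bone and cartilage genes were marked in 4 of 15 cases, with both marks at Sox9 (8.59 and 5.13) and Comp (7.23 and 10.5) and AcH2B only at Runx2 (5.60) and Spp1 (3.21). By contrast, 22 of 24 preadipocyte and fibroblast genes and 21 of 34 adipocyte genes had a mark.

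Regions specific to a mark were numerous in the bodies of some genes, most of which held shared regions too. Rad51b, a recombination gene of 551 kb on chromosome 12, held 78 AcH2B regions without AcH3, 17 AcH3 regions without AcH2B and 81 shared AcH2B regions. Lrmda held 56 AcH2B-specific and 22 shared AcH2B regions over 1037 kb. Mylk, a myosin kinase gene, held 31 and 36 over 257 kb, and Arnt2, a bHLH-PAS factor gene, 29 and 9 over 165 kb. AcH3-specific regions were most numerous in Adamts16, a metalloprotease gene, with 27 over 114 kb beside 9 shared AcH3 regions and 1 AcH2B-specific region. Gse1 held 27 AcH3-specific and 15 shared AcH3 regions, Fam135b 22 and 8, and Glis1 22 and 25. Syn3 was high in both counts, with 26 AcH3-specific, 32 AcH2B-specific and 34 shared AcH3 regions. Genes were ranked by number, so long genes are favoured.

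The widest regions carried both marks. The widest AcH3 region, 7575 bp at chr12:79923496-79931070, lay 75236 bp from Rad51b, and AcH2B covered 99.3% of it. The next, 6028 bp at chr2:126033809-126039836, touched starts of Fam227b and Fgf7, a fibroblast growth factor gene, with 95.8% under AcH2B. The widest AcH2B region, 9266 bp at chr5:110602119-110611384, lay at a start of Galnt9, and AcH3 covered 96.6% of it. The second AcH2B region, 8274 bp at chr15:54805573-54813846, lay 25055 bp from Enpp2, which encodes autotaxin, with 72.0% under AcH3. The third region of each list, 5912 bp in Lclat1 for AcH3 and 7705 bp at 1700011L22Rik for AcH2B, was covered by the other mark over 100% and 73.9% of its length.

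HDAC3 lay on regions with both marks more often than on those with 1. The siME2 HDAC3 list held 1597 regions from a looser list, with a lowest −log10 p of 2.30 against 3.38 for AcH3 and 3.29 for AcH2B. Its lowest −log10 q was 0.0, against 1.31 for AcH3 and 1.30 for AcH2B, and its weakest summit stood on 6 fragments. Some HDAC3 entries thus passed no limit for multiple testing. Of the 1597 HDAC3 regions, 441 (27.6%) touched both AcH3 and AcH2B, 134 (8.39%) AcH3 only, 122 (7.64%) AcH2B only and 900 (56.4%) neither. Seen from the histone marks, HDAC3 touched 2.70% of shared and 0.934% of specific AcH3 regions, and 2.93% of shared and 0.575% of specific AcH2B regions. At gene starts it was listed at 7.52% of doubly marked, 3.06% of AcH3-only, 2.19% of AcH2B-only and 0.400% of unmarked genes. Lamp1 was among the AcH2B-only genes with HDAC3, at a fold of 5.03, and Fos and Cebpd among the AcH3-only genes, at 5.06 and 4.53. Doubly marked regions were also the stronger and wider ones, and the part of strength in this difference was not tested.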

How the data were processed

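The siME2 libraries, AcH3 and AcH2B, were compared, with siControl and siME1 beside them. Per the submitters' processing notes, the tools were MACS2, BWA, bedtools, SAMtools and deepTools, with versions and settings not given in the sources used. The authors deposited 1 headerless MACS2-style peak table per library. Its deposited columns hold the pileup at the summit (a scaled coverage signal), a −log10 p-value, a −log10 q-value and a fold enrichment ratio, and were identified from the values. The notes name build mm8, but scaffold names and coordinates were those of GRCm38, which was used. Rows with the same chromosome, start and end formed 1 region, which took the values of its highest summit by −log10 p. Regions sharing at least 1 bp counted as shared. Gene starts came from the RefSeq promoter table of GRCm38.p6 for 17491 of 21883 protein-coding genes. For the other 4392, either annotated end was used, within 1 kb. The planned gene-end windows were thus replaced by starts where these were known.

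Of the libraries, 1 per antibody and siRNA, no replicate exists, so no test was run. Wilson 95% intervals were computed with Python 3.11.15 and SciPy 1.17.1, and the overlap code was tested on simulated data. The members, the 23 gene lists (501 genes, all matched, 2 by synonym) and the alternatives were chosen with earlier results of these data known. Named genes were the 8 highest by −log10 p in each single-mark class, the 6 highest with both marks, the 4 at each end of the fold ratio, the 5 with most specific body regions and the 3 widest regions. Genes known by clone names only, and those in regions above 5 times the genome background, were passed over. The promoters printed above are examples that hold the marked motif, and Hsbp1 falls outside this rule. The fold of a gene is that of its strongest region. Some members of the lists are not reported here by name.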

Additional observations from a re-analysis of the deposited data

Results flagged for a closer look

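Several measures of AcH3 against AcH2B differed in sign between siME2 and siControl, and 1 of them also between siME2 and siME1. None of these differences was tested, since each rests on single libraries. The number of genes with a region at a start, AcH3 minus AcH2B, was −288 in siME2 against 8390 in siControl and 2683 in siME1. The siME2 sign rests on the longer AcH2B list. With equal numbers of regions AcH3 only was called at 1730 genes and AcH2B only at 1642. The number of regions, AcH3 minus AcH2B, was −4050 in siME2 against 1949 in siControl, and it was −19850 in siME1. The covered sequence, AcH3 minus AcH2B, was −4.99 Mb against 7.97 Mb, with −18.0 Mb in siME1. The median width, AcH3 minus AcH2B, was −43 bp against 231 bp, with −6 bp in siME1. In these 3 measures siME1 had the sign of siME2.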

How the results depend on the processing

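No paired analysis was possible because each antibody and siRNA had 1 library, and for the same reason no replicate could be left out. With a −log10 q of at least 3 in both lists, 59.8% of AcH3 regions overlapped AcH2B and 46.7% of AcH2B regions overlapped AcH3. The share at gene starts was then 28.0% for AcH3-specific, 20.2% for AcH2B-specific and 22.9% for shared AcH3 regions. With equal numbers of regions the overlaps were 57.5% and 52.9%, and 19.7% of AcH2B-specific regions lay at starts. With reciprocal overlap of 50% they were 32.6% and 28.5%, and the shares at starts 21.5%, 19.4% and 25.1%. With gaps of up to 500 bp counted as shared the overlaps were 71.1% and 60.7%. With a window of 2 kb the shares at starts were 27.5%, 21.9% and 24.9%. With AcH3 at a start and no AcH2B in the gene or within 10 kb of it, AcH3-only genes numbered 871. Genes with both marks anywhere in the gene or within 10 kb of it numbered 7208, by a wider rule for AcH3. The alternative gene-start definitions were chosen after seeing the data, and under them each gene count stayed within 1.5 times its value. In all, 26 of the alternative values stayed close to the reported ones and 20 moved by more than their counting error or by more than 1.5 times. No listed summit stood on fewer than 9 fragments for AcH3 or 10 for AcH2B, which is the lowest count over the genome and not a fixed limit. Signal weaker than that was not detectable at this depth, and a swap of the antibodies would exchange the marks in every value.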

Other observations

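The genes named by rank were unevenly spread over the chromosomes. Of 30 distinct genes, 9 lay on chromosome 8, among them Lamp1, Prmt9, Gins3 and Enkd1 with AcH2B only, St3gal2 and Gnao1 with AcH3 only, and Adgra2, Plvap and Zfp827 with both. Chromosome 8 carries 1042 of the 21883 protein-coding genes. It also had the highest median local background under regions of any chromosome, at 3.64 for AcH3 and 3.83 for AcH2B, against a genome background of 2.00 and 2.07. Chromosome 15 stood at 3.19 and 3.42, and chromosome X lowest at 2.00 and 2.07. AcH3 and AcH2B regions on chromosome 8 were also shared more often than most, at 65.0% and 57.6%, against 53.1% and 36.3% on X. At equal fold, a higher background gives a higher −log10 p, by which the genes were ranked. The part of the background in this ranking was not tested.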
